A study of Danio rerio with 25 samples.

Results

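The genes described here make, branch and break down glycogen in zebrafish larvae. They were taken from a list of 10 symbols for glycogenin, glycogen synthase, branching enzyme and glycogen phosphorylase, matched to the gene IDs of the count tables through a table of gene names. The listed symbols are gyg1a, gyg1b, gyg2, gys1, gys2, pygma, pygmb, pygl, pygb and gbe1b. The 10 symbols gave 11 genes, of 32520 in the tables and 25832 that were tested, and all 11 passed the filter on low counts. The list was drawn up because a *gyg1* gene is among the genes most clearly lower in *dmd* mutant controls, so the untreated mutants and untreated WT siblings chose the members. Values of that contrast are therefore given below as a description, without a p-value for any gene. Counts of genes past the thresholds there are a description too. The name table gives both copies of *gyg1*, of *pygm* and of *gbe1* the same symbol, without the letter a or b. Each copy is named here by its symbol and the last 5 digits of its Ensembl ID, as in gyg1_59391 for ENSDARG00000059391 and gyg1_11934 for ENSDARG00000011934.

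RNA was sequenced from whole larvae at 7 dpf (days post fertilization), in libraries of 2 larvae each. *dmd* mutants carry the *sapje* ta222a allele of the dystrophin gene in the whole animal. At disease onset the study told mutants and healthy WT siblings apart by birefringence, an optical measure of muscle order. Treated larvae of both genotypes had eNMES, neuromuscular electrical stimulation with the endurance program of the study, once a day at 2, 3 and 4 dpf, and untreated larvae (controls) had none; larvae of all groups were fed from 5 dpf. There were 4 libraries of WT sibling controls, 3 of WT siblings with eNMES, 8 of *dmd* mutant controls and 9 of *dmd* mutants with eNMES. Larvae were sorted by disease severity and by their change in birefringence before RNA was extracted.

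Glycogen is the branched glucose store of muscle, liver and other tissues. Glycogenin starts a chain by adding glucose to itself, glycogen synthase lengthens the chain from UDP-glucose, and branching enzyme adds side chains. Glycogen phosphorylase takes glucose off the chain ends as glucose 1-phosphate, which muscle feeds into glycolysis and liver can release as free glucose. In mammals GYS1 and PYGM are the muscle forms, GYS2 and PYGL the liver forms, and PYGB the form first found in brain. RNA of the whole larva holds all of these tissues, so fewer cells of a type and less RNA per cell cannot be told apart.

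The libraries held 7957160 to 22808348 estimated counts. The *dmd* transcript was at 2588 to 5395 normalized counts in the 7 WT sibling libraries and at 1008 to 1435 in all 17 mutant libraries, so no library went against its genotype label. Normalized counts are counts scaled to a common library size. Defining genes of fast muscle, liver and brain were above 0 in every library, and 1 of the 8 slow muscle genes was at 0 in at least 1 library. The libraries also fall into 2 sets by the sign of the first principal component of 40 circadian clock genes. All 4 WT sibling controls have a positive sign and all 3 WT siblings with eNMES a negative sign, so the set and the treatment cannot be told apart in WT siblings. In *dmd* mutants the negative set holds control replicates 1 to 5 and eNMES replicates 2 to 6, and the positive set the other 7 libraries.

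Levels were compared between genes in TPM, a share of all transcripts that takes transcript length into account. The glycogenin gene gyg1_59391 had the highest level, with a mean of 139.5 TPM over the 24 libraries (range 87.95 to 205.9). gyg1_11934 followed at 96.5 TPM and the muscle-type synthase gys1 at 77.4 TPM, and this order of 3 genes held in each of the 24 libraries. pygm_55518 (44.8 TPM), pygm_13317 (40.3 TPM), pygl (40.3 TPM), gys2 (35.0 TPM) and pygb (28.4 TPM) lay close together, and the TPM ranges of pygm_13317 and pygl overlapped in every group. gbe1_99524 had 6.4 TPM, gyg2 2.2 TPM and gbe1_29051 1.5 TPM. The ranges of gyg2 and gbe1_29051 overlapped in all groups except WT siblings with eNMES. The glycogenin message was thus carried almost wholly by the gyg1 pair, and the branching enzyme message mostly by gbe1_99524.

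**Figure D1:**
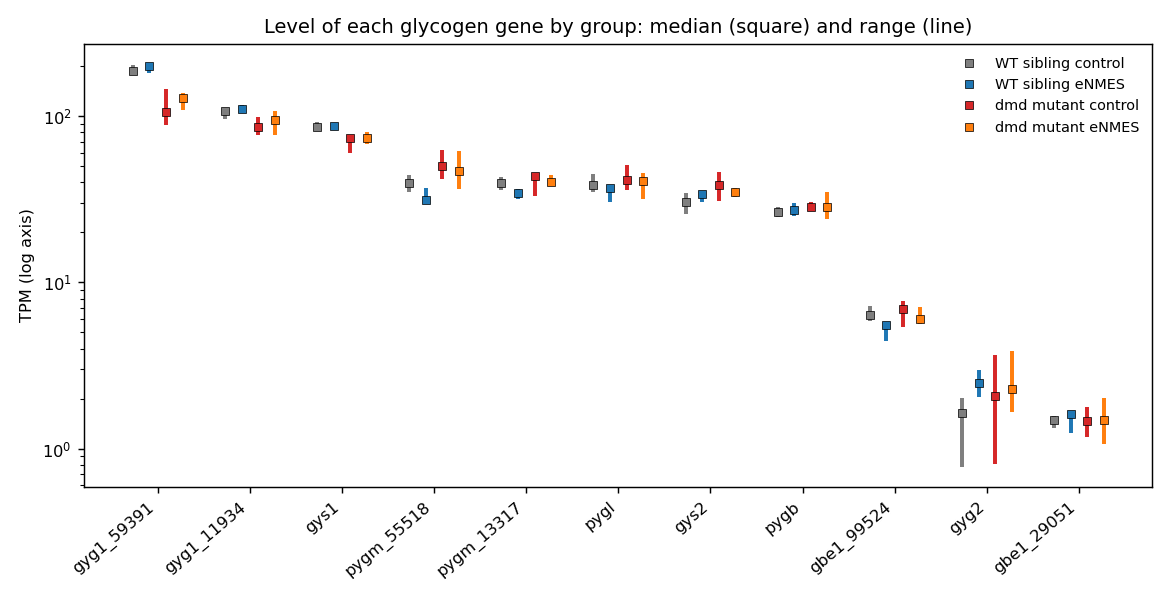
Level of the 11 glycogen genes in TPM on a log axis, by group, with the median as a square and the range over the libraries as a line. gyg1_59391 is the highest gene, between 87.95 and 205.9 TPM. Its mutant groups lie below its WT sibling groups, where the controls chose the gene.

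Of the synthesis genes, the glycogenin gene gyg1_59391 was lower in *dmd* mutants than in WT siblings, both without and with eNMES. WT sibling controls had 3635, 3983, 3789 and 4124 normalized counts. WT siblings with eNMES had 4015, 3720 and 3930. The 2 WT sibling groups overlapped throughout. *dmd* mutant controls had 3142, 1868, 2156, 2192, 2371, 2367, 2004 and 2134 normalized counts in replicates 1 to 8. *dmd* mutants with eNMES had 2391, 2770, 2973, 2656, 2483, 2726, 2765, 2605 and 2332 in replicates 2 to 10. All 17 mutant libraries lay below all 7 WT sibling libraries. The controls among them chose the gene, so their separation is only a description. Of all genes tested, 8.53% did not overlap between the trained groups alone and 4.98% between the controls alone. The share for all 17 against all 7 libraries was not computed. Replicate 1 of the mutant controls stood above every other mutant library.

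The rule that chose the genes did not use the trained larvae, and there the lower level of gyg1_59391 could be tested. The list was still drawn up with earlier results of these data known. It was 32.3% lower in *dmd* mutants with eNMES than in WT siblings with eNMES (log2 fold change -0.56 ± 0.095 SE, adjusted p = 0.000548 in edgeR's quasi-likelihood test, Benjamini-Hochberg over all genes tested). All 9 mutant libraries lay below all 3 WT sibling libraries (two-sided exact permutation p = 0.00909, the smallest that 9 libraries against 3 can give). With the mutant libraries of the negative set only, which is the set of all 3 WT siblings with eNMES, the log2 fold change was -0.55 (SE 0.115, adjusted p = 0.00923). It ran from -0.59 to -0.53 when any 1 library was left out, and every one of those 24 fits had an adjusted p under 0.1. In controls, the contrast that chose the gene, the fitted value was -0.77 (SE 0.088).

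The estimated count of gyg1_59391 was not whole in 24 of 24 libraries and that of gyg1_11934 in 23 of 24, so part of their reads also matched other transcripts and was divided among them by estimation. The summed normalized count of the 3 glycogenin genes does not depend on how reads are divided among these genes. It was 6881 to 7742 in WT sibling controls, 7569 to 7705 in WT siblings with eNMES, 4804 to 6684 in *dmd* mutant controls and 5327 to 6877 in *dmd* mutants with eNMES. The highest sum of a trained mutant library lay below the lowest of the trained WT siblings. Of the TPM of the gyg1 pair, gyg1_59391 made up 60.9% to 66.1% in WT siblings of both treatments and 51.5% to 60.9% in mutants.

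gyg1_11934 was at 3219 to 3883 normalized counts in WT sibling controls and at 3581 to 3944 in WT siblings with eNMES. Its range was 2648 to 3523 (median 2980) in *dmd* mutant controls and 2779 to 3868 (median 3263) in *dmd* mutants with eNMES, and the genotypes overlapped under both treatments. Between the trained groups its log2 fold change was -0.18 (SE 0.083) and did not pass the test (adjusted p = 0.1998 in edgeR), although 8 of 9 mutant libraries were below all 3 of the WT siblings. gyg2, named for the second mammalian glycogenin, was low, between 16.6 and 77.5 normalized counts in any library, and its log2 fold change between the trained groups was 0.05 (SE 0.318).

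The muscle-type synthase gys1 was at 3508 to 3824 normalized counts in WT sibling controls and at 3580 to 3911 in WT siblings with eNMES. It ranged from 2609 to 3456 (median 3046) in *dmd* mutant controls and from 2797 to 3654 (median 3265) in *dmd* mutants with eNMES. Its log2 fold change between the trained groups was -0.20 (SE 0.075, adjusted p = 0.104 in edgeR), which did not pass the test, and 8 of 9 mutant libraries were below all 3 of the WT siblings. gys1 did pass in DESeq2, where 6 of the 11 genes passed. The liver-type synthase gys2 had its values on the other side. It was at 740 to 1003 normalized counts in WT sibling controls, 862 to 962 in WT siblings with eNMES, 933 to 1349 (median 1139) in *dmd* mutant controls and 928 to 1130 (median 1020) in *dmd* mutants with eNMES. Between the trained groups the log2 fold change of gys2 was 0.14 (SE 0.085, adjusted p = 0.346 in edgeR) and the ranges overlapped. Of the TPM of both synthases, gys1 made up 70.8% to 76.0% in WT siblings and 61.4% to 71.4% in mutants.

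**Figure D2:**
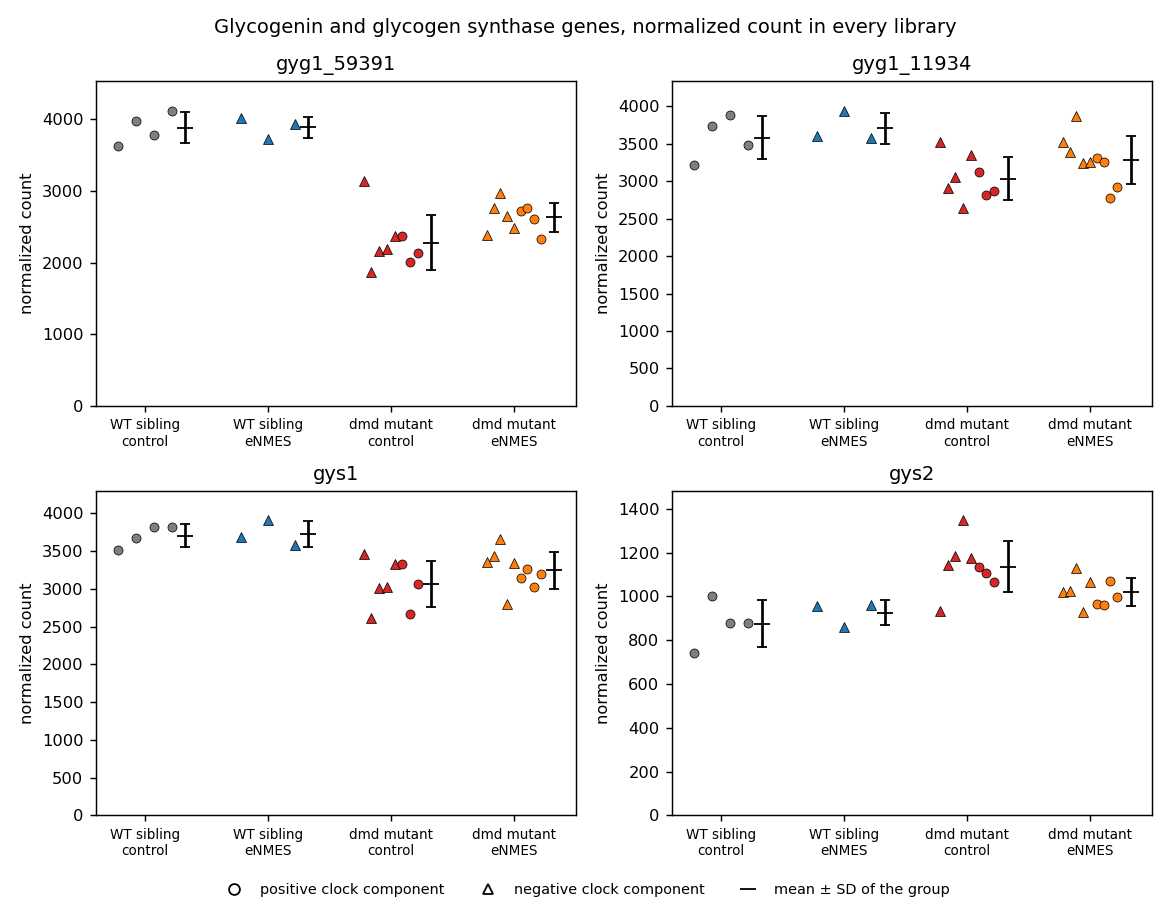
Normalized count in every library of the 2 gyg1 genes and the 2 glycogen synthase genes, by group, with circles for libraries of the positive and triangles for those of the negative clock component, and bars for the mean ± SD. For gyg1_59391 all 17 mutant libraries lie below all 7 WT sibling libraries, but the controls among them chose the gene and only describe it. The share of all genes with such a split was not computed. The highest mutant point is control replicate 1 at 3142.

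Of the branching enzyme genes, gbe1_99524 was higher in trained *dmd* mutants than in trained WT siblings. WT siblings with eNMES had 142, 151 and 116 normalized counts, and *dmd* mutants with eNMES 140 to 206 (median 169). The fitted level was 27.2% higher in the mutants (log2 fold change 0.35 ± 0.115 SE, adjusted p = 0.0637 in edgeR), with 8 of 9 mutant libraries above all 3 of the WT siblings. This gene did not pass with the mutant libraries of the negative set only (log2 fold change 0.30, adjusted p = 0.172), with the library set as a term (0.30, adjusted p = 0.126) or with the replicate number as a block (0.24, adjusted p = 0.284), nor without replicate 1 or replicate 3 of the WT siblings with eNMES or without replicate 9 of the *dmd* mutants with eNMES (highest adjusted p = 0.336). In controls gbe1_99524 was at 155 to 189 normalized counts in WT siblings and 155 to 214 in mutants. gbe1_29051 stayed between 48.6 and 71.8 normalized counts in all 24 libraries, with a log2 fold change of -0.04 (SE 0.127) between the trained groups.

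Of the 4 phosphorylase genes, 3 were higher in *dmd* mutants with eNMES than in WT siblings with eNMES, and pygb did not pass the test. pygm_55518, a muscle-type phosphorylase gene, had 1058, 1038 and 1267 normalized counts in WT siblings with eNMES. *dmd* mutants with eNMES had 1912, 1454, 2334, 1238, 1428, 1595, 1769, 1853 and 1616 in replicates 2 to 10. Only replicate 5 of these mutants, at 1238, lay within the range of the WT siblings. The fitted level was 50.6% higher in the mutants (log2 fold change 0.59 ± 0.139 SE, adjusted p = 0.0107 in edgeR, two-sided exact permutation p = 0.0182). The log2 fold change was 0.58 with the mutant libraries of the negative set only (adjusted p = 0.0756).

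The second muscle-type gene, pygm_13317, had 2089, 2397 and 2185 normalized counts in WT siblings with eNMES. *dmd* mutants with eNMES were tightly grouped at 2776, 2670, 2737, 2757, 2782, 2680, 2555, 2656 and 2665 in replicates 2 to 10, all above the WT siblings with eNMES. The fitted level was 21.3% higher in the mutants (log2 fold change 0.28 ± 0.073 SE, adjusted p = 0.0189 in edgeR, two-sided exact permutation p = 0.00909). It did not pass without replicate 1 of the WT siblings with eNMES (log2 fold change 0.24, adjusted p = 0.111). With the mutant libraries of the negative set only the log2 fold change was 0.31 (adjusted p = 0.0429).

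The liver-type phosphorylase pygl had 1250, 1071 and 1266 normalized counts in WT siblings with eNMES and 1153 to 1712 (median 1441) in *dmd* mutants with eNMES. The fitted level was 22.2% higher in the mutants (log2 fold change 0.29 ± 0.097 SE, adjusted p = 0.0660 in edgeR), and 8 of 9 mutant libraries lay above all 3 of the WT siblings. pygl lost its call when any 1 of the 3 WT siblings with eNMES was left out (highest adjusted p = 0.311). With the mutant libraries of the negative set only, the set of these 3 WT siblings, its log2 fold change was 0.36 (adjusted p = 0.0354 in edgeR). With those of the positive set only it was 0.20 (adjusted p = 0.181), but there genotype and set cannot be told apart. pygb was at 895 to 1114 normalized counts in WT siblings with eNMES and at 960 to 1406 in *dmd* mutants with eNMES, with a log2 fold change of 0.18 (SE 0.092) that did not pass (adjusted p = 0.253 in edgeR). In controls pygl was at 1262 to 1561 normalized counts in WT siblings and 1340 to 1849 in mutants. For pygl, too, the trained mutants overlapped the WT sibling controls. The control values of pygb were 924 to 1051 in WT siblings and 1005 to 1190 in mutants.

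**Figure D3:**
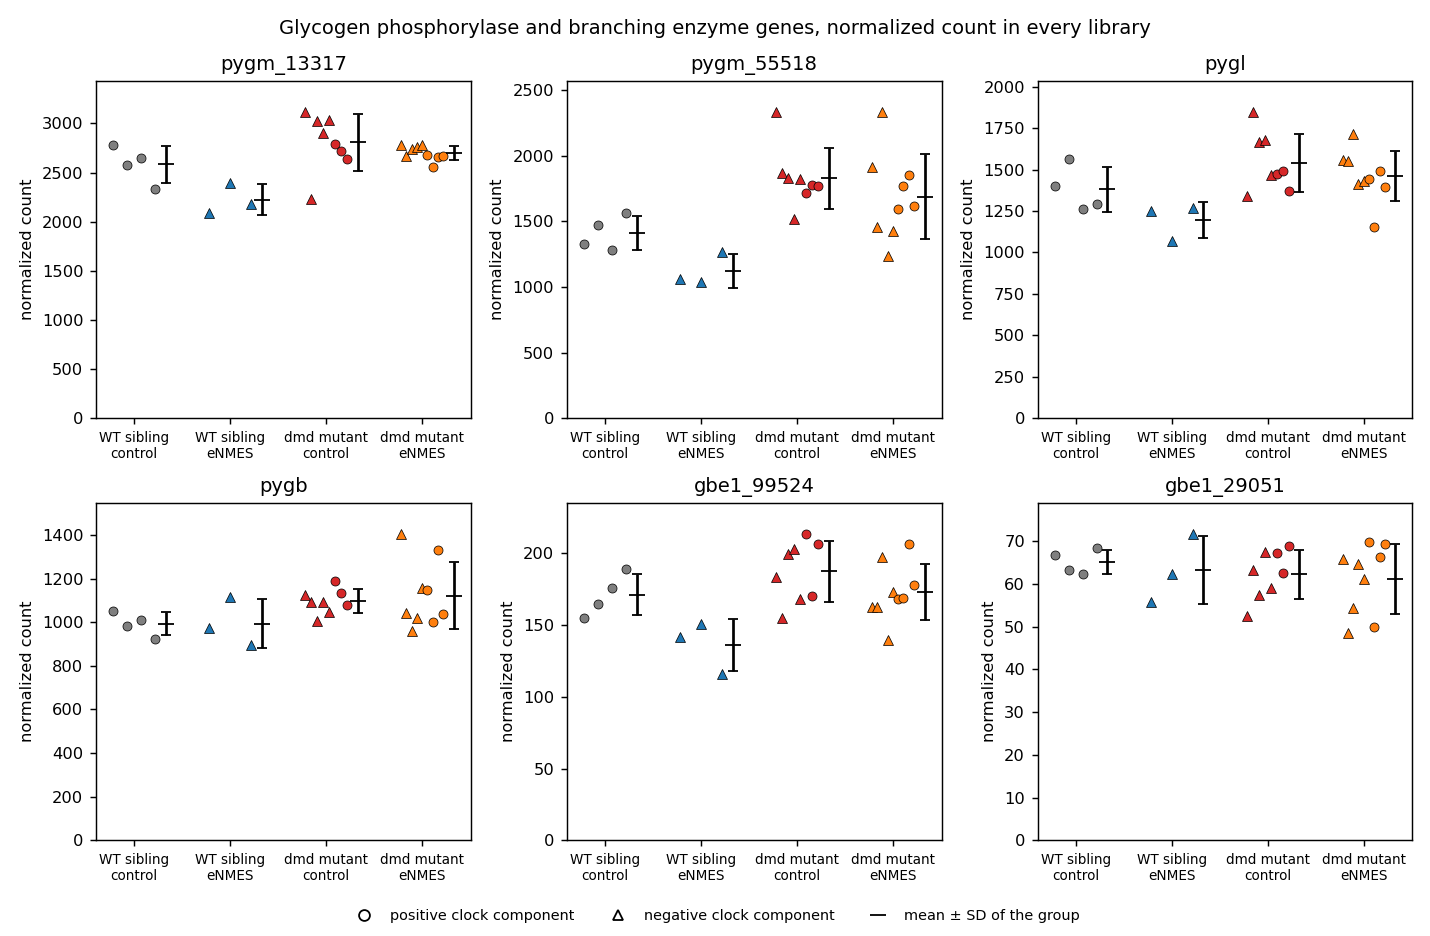
Normalized count in every library of the 4 glycogen phosphorylase genes and the 2 branching enzyme genes, by group, with circles for libraries of the positive and triangles for those of the negative clock component, and bars for the mean ± SD. For pygm_13317 all 9 trained mutant libraries, from 2555 to 2782, lie above the 3 trained WT sibling libraries, from 2089 to 2397.

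Over the 11 genes, 5 passed the test between the trained genotypes at an adjusted p under 0.1, with 4 higher and 1 lower in mutants. Of all genes tested, 12.3% passed, 6.74% higher and 5.57% lower. The 4 at a higher level in mutants, pygm_55518, pygm_13317, pygl and gbe1_99524, include 3 of the 4 phosphorylase genes. The 1 at a lower level was a glycogenin gene. None of the 11 passed the test with a log2 fold change beyond 0.6 either way, the fold threshold of the study, which 3.94% of all genes did, and none did in DESeq2. In this comparison 7 of the 11 genes had an unadjusted p under 0.05 (22.9% of all genes), and the median log2 fold change was 0.14 against 0.002 over all genes tested. The groups did not overlap for 2 of 11 genes (gyg1_59391 and pygm_13317), against 8.53% of all genes tested. With replicate 1 of the WT siblings with eNMES left out, 2 of 11 genes passed the test (gyg1_59391 and pygm_55518), and with replicate 3 left out, 3 did (these 2 genes and pygm_13317).

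Summed over its members, the phosphorylase family was at 126.5 to 134 TPM in WT siblings with eNMES and 146.9 to 171.9 TPM in *dmd* mutants with eNMES. The sum of both synthase genes was at 118 to 121.5 TPM and 100.5 to 117.7 TPM in the same groups. The ratio of phosphorylase to synthase TPM was accordingly 1.05 to 1.14 in WT siblings with eNMES and 1.31 to 1.56 in *dmd* mutants with eNMES. In controls it was 1.15 to 1.39 in WT siblings and 1.35 to 1.67 in mutants. These sums describe the libraries and were not tested.

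Markers of other tissues moved in the same comparison. Past both thresholds, 3.0% of all genes tested were higher in trained mutants and 0.941% lower. Of 20 fast muscle markers, 7 were higher in trained mutants past both thresholds and none lower. They include both copies of *acta1*, skeletal muscle actin (log2 fold changes 1.52 and 2.33 in edgeR), and *atp2a1*, the calcium pump of fast muscle (0.77). The summed level of the 20 markers was 61620 to 65860 TPM in WT siblings with eNMES and 64310 to 84170 TPM in *dmd* mutants with eNMES. Of 13 liver markers, 8 were higher past both thresholds, and their summed level was 7359 to 9212 TPM in the WT siblings and 10180 to 17150 TPM in the mutants. The 9 brain markers had no call past both thresholds, with sums of 981.8 to 1027 TPM and 870.6 to 974.6 TPM. The 8 slow muscle markers had none either, with sums of 947 to 993.7 TPM and 995.9 to 1219 TPM. The fast muscle sums of the trained groups overlapped. At an adjusted p under 0.1 and any fold change, 12 of 20 fast muscle and 11 of 13 liver markers were higher and none lower. Of the slow muscle markers 2 were higher and none lower, and of the brain markers 1 was higher and 1 lower. Of all genes tested, 6.74% were higher and 5.57% lower. The part of muscle and liver content in the higher phosphorylase values was not tested. Nor was the part of tissue content in the lower gyg1_59391, or in the negative log2 fold change of gys1, which did not pass the test.

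The contrast of untreated mutants with untreated WT siblings chose the list, so its values are only a description. For completeness, 1 of 11 genes (gyg1_59391) lay past both thresholds there beside 3.12% of all genes, and 5 lay under the adjusted p alone beside 10.9%. The place of gyg1_59391 among them follows from the choice, and nothing is read from these counts. The fitted log2 differences of untreated mutants from untreated WT siblings were -0.24 for gyg1_11934, -0.28 for gys1, 0.38 for gys2, 0.12 for pygm_13317 and 0.37 for pygm_55518. Those of pygl, pygb, gbe1_99524, gbe1_29051 and gyg2 were 0.16, 0.14, 0.13, -0.07 and 0.44. pygm_55518 was at 1280 to 1566 normalized counts in untreated WT siblings and 1517 to 2335 in untreated mutants, where replicate 1 was highest.

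**Figure D4:**
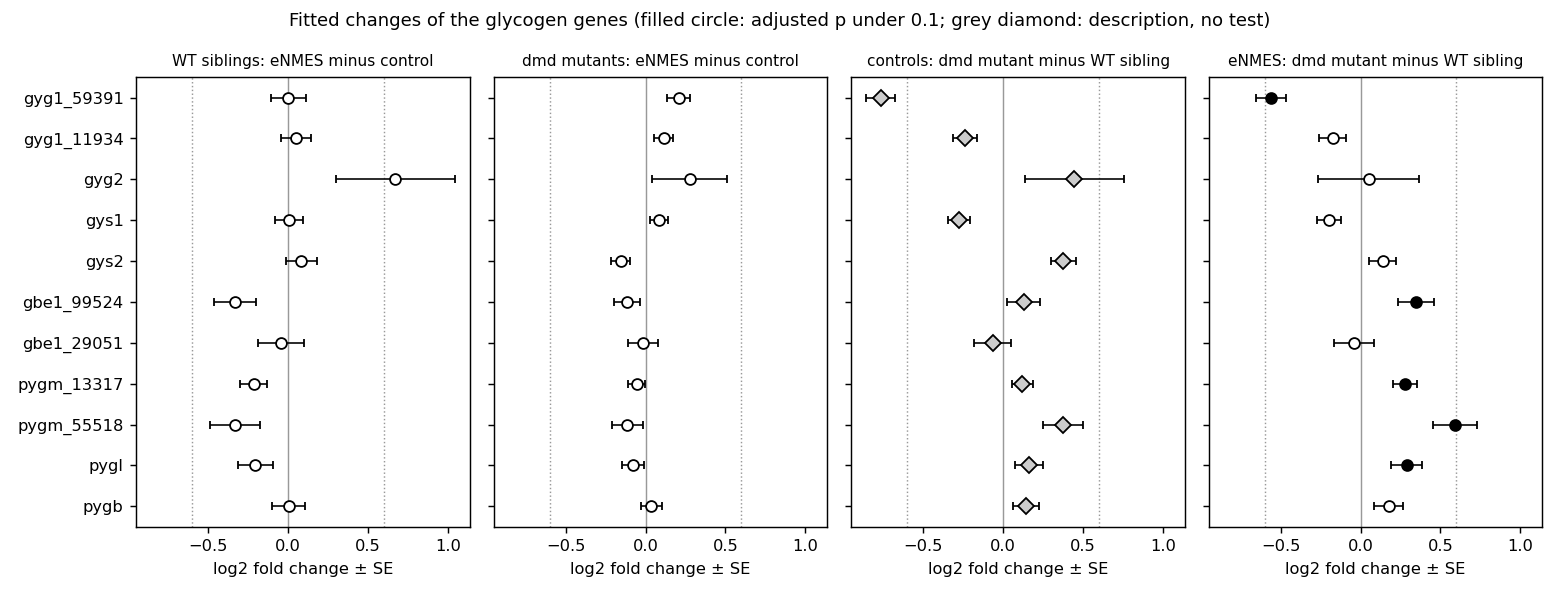
Fitted log2 fold change ± SE of the 11 glycogen genes in 4 comparisons, where filled circles passed an adjusted p under 0.1, open circles did not, grey diamonds are the contrast that chose the list and dotted lines mark a log2 fold change of 0.6 either way. Filled circles occur only between trained *dmd* mutants and trained WT siblings, 1 below 0 (gyg1_59391, -0.56) and 4 above 0.

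In WT siblings, no glycogen gene passed the test after eNMES. None of the 11 genes passed both thresholds in edgeR, where 2.95% of all genes did, and none passed at any fold change, where 6.48% did. Unadjusted p-values were under 0.05 for 3 genes (17.5% of all genes), all with lower levels after eNMES, and DESeq2 passed 1 of them (pygm_13317, adjusted p = 0.0914). These were pygm_13317 (log2 fold change -0.22, SE 0.082), pygm_55518 (-0.33, SE 0.155) and gbe1_99524 (-0.33, SE 0.130). The 3 values of pygm_55518 with eNMES, up to 1267, lay below its 4 control values, from 1280 to 1566. The groups also did not overlap for gbe1_99524, and such genes made up 20.3% of all genes tested. The exact permutation p was 0.0571 for both, the smallest that 3 libraries against 4 can give. gyg1_59391 had a log2 fold change of 0.00 (SE 0.112) and gys1 of 0.01 (SE 0.087). The low gyg2 had the highest value, 0.67 (SE 0.374, adjusted p = 0.366), with 16.6 to 41.9 normalized counts in controls and 41.2 to 58.4 with eNMES. With the library set as a term its log2 fold change was 1.40 and passed both thresholds (adjusted p = 0.0918), but the set and the treatment cannot be told apart here.

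In *dmd* mutants, no glycogen gene passed after eNMES either. None of the 11 passed both thresholds, where 0.128% of all genes did, and none at any fold change, where 0.414% did, with 2 genes at an unadjusted p under 0.05 (10.3% of all genes) and none past the test in DESeq2. gyg1_59391 was at a median of 2174 normalized counts in mutant controls and 2656 with eNMES, with overlapping ranges. Its log2 fold change was 0.21 (SE 0.072, adjusted p = 0.268 in edgeR, two-sided exact permutation p = 0.0216). Replicate 1 of the controls, at 3142, decided this call: without it the log2 fold change was 0.29 (SE 0.054, adjusted p = 0.0334 in edgeR). The control libraries are those in which gyg1 was chosen for being low, so this value is not free of the choice. gys2 was the other gene, with a median of 1139 normalized counts in controls and 1020 with eNMES (log2 fold change -0.16, SE 0.061, adjusted p = 0.340 in edgeR). The groups overlapped for all 11 genes, as for all but 0.0387% of genes tested. The remaining 9 genes had log2 fold changes from -0.115 to 0.28.

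The change with eNMES in mutants minus that in WT siblings passed the test for none of the 11 genes in edgeR, with or without the fold threshold, where 1.85% and 2.81% of all genes passed, nor in DESeq2. gys2 was the 1 gene with an unadjusted p under 0.05, as 14.5% of all genes had (difference of log2 changes -0.24, SE 0.114, adjusted p = 0.329). For gyg1_59391 the difference was 0.21 (SE 0.133) and for pygm_55518 0.22 (SE 0.183). The difference uses the control libraries in which a gyg1 gene was chosen for being low. The value of gyg1_59391 is therefore not free of the choice.

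Genes around glycogen were read from lists of 78 genes in all, grouped by role. These lists were chosen with earlier results of these data known. Between trained genotypes, 10 of 78 passed both thresholds and all 10 were higher in mutants, against 3.94% of all genes tested (3.0% higher). At any fold change 23 were higher and 2 lower, against 6.74% and 5.57% of all genes tested. Without replicate 3 of the WT siblings with eNMES the count past both thresholds was 4 of 78, and without replicate 2 it was 6. With the mutant libraries of the negative set only it was 6. Which of the genes named below lost their call in these fits is not given here. Between untreated genotypes, 4 of 78 lay past both thresholds, 2 higher and 2 lower in mutants, against 3.12% of all genes tested. At any fold change 10 were higher and 6 lower there, against 6.56% and 4.3% of all genes tested. These untreated counts are a description.

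Among regulators of the glycogen enzymes, 1 of 8 targeting subunits of protein phosphatase 1 was higher in trained mutants past both thresholds, as were 3.0% of all genes tested. This was ppp1r3ab, which in mammals brings the phosphatase to muscle glycogen. It was at 131 to 181 normalized counts in WT siblings with eNMES and 236 to 369 in *dmd* mutants with eNMES (log2 fold change 0.87 ± 0.230 SE, adjusted p = 0.0219 in edgeR). Between untreated mutants and untreated WT siblings, the log2 difference of ppp1r3ab was -0.60, given as a description. It was the lowest of the 8 there, with 5 above 0 and 3 below. In WT siblings ppp1r3ab changed by -1.16 with eNMES, where treatment and library set cannot be told apart. Of 7 phosphorylase kinase genes, 1 was higher: phkg1_69498, a catalytic subunit of the kinase that activates phosphorylase (log2 fold change 0.64, adjusted p = 0.0289). None of 10 other glycogen genes, among them debranching enzyme, lysosomal glucosidase and the GSK3 kinases that act on synthase, passed the test. The debranching genes agl_00352 and agl_03811 had log2 fold changes of -0.40 (SE 0.241) and 0.13 (SE 0.072), and those of the list ran from -0.49 (epm2a, laforin) to 0.21 (gaa_16493).

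Of 17 genes for glucose entry and sugar phosphates, 5 were higher in trained mutants past both thresholds, against 3.0% of all genes tested. pgm1, which interconverts glucose 1-phosphate and glucose 6-phosphate, was at 1034 to 1213 normalized counts in WT siblings and 1159 to 2192 in mutants (log2 fold change 0.66 ± 0.157 SE, adjusted p = 0.0119 in edgeR). hk2, a hexokinase, had a log2 fold change of 0.63, slc2a1_07412, a glucose transporter, of 0.65, and slc37a4, which moves glucose 6-phosphate into the endoplasmic reticulum, of 0.62. The fifth, the glucose-6-phosphatase gene g6pc1_14967, was at only 2.84 to 6.03 normalized counts in WT siblings and 3.88 to 19.2 in mutants. Between untreated mutants and untreated WT siblings, the log2 difference of slc2a1_07412 was -0.47, given as a description. It was the lowest of the 17 there, with 15 above 0 and 2 below. In WT siblings slc2a1_07412 changed by -0.96 with eNMES, where treatment and library set cannot be told apart.

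Of 31 glycolysis genes, 13 were higher and 2 lower in trained mutants at any fold change (6.74% and 5.57% of all genes), and 1 passed both thresholds. pfkm_14179, muscle phosphofructokinase, was at 761 to 841 normalized counts in WT siblings with eNMES and 1244 to 1650 in *dmd* mutants with eNMES (log2 fold change 0.77 ± 0.094 SE, adjusted p = 1.44e-05 in edgeR). The 2 lower genes were tpi1_25012 (log2 fold change -0.47) and eno2 (-0.14). Of 5 gluconeogenesis genes, 2 were higher past both thresholds, against 3.0% of all genes tested. They were pck2, mitochondrial phosphoenolpyruvate carboxykinase (log2 fold change 0.65), and fbp2, muscle fructose bisphosphatase (0.83).

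**Figure D5:**
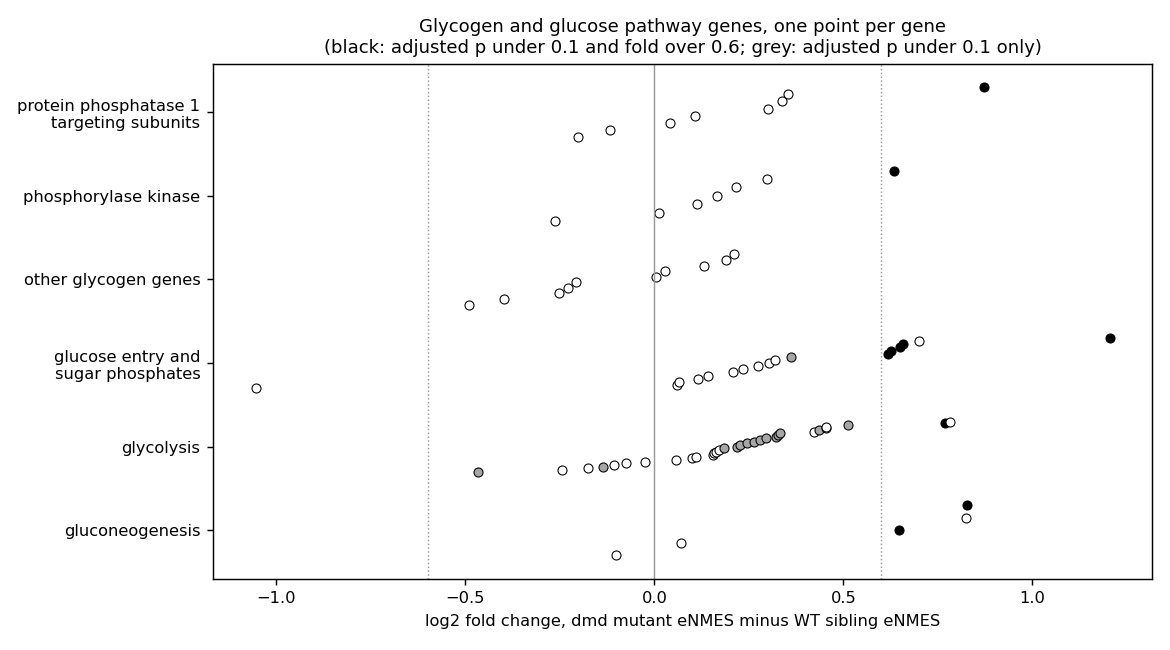
Log2 fold change of trained *dmd* mutants against trained WT siblings for 78 genes of 6 lists, 1 point per gene, black where both thresholds were passed, grey where only the adjusted p was under 0.1 and white otherwise. The 10 black points are all above 0.6, and most grey points are glycolysis genes between 0 and 0.6.

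In WT siblings, 4 of 78 of these genes passed both thresholds after eNMES, against 2.95% of all genes. pck1, the cytosolic phosphoenolpyruvate carboxykinase, fell from 15180 to 20520 normalized counts in controls to 5395 to 8271 (log2 fold change -1.39, SE 0.409, adjusted p = 0.0675 in edgeR). ppp1r3ab fell by 1.16 and slc2a1_07412 fell by 0.96 on the log2 scale, while stbd1, a glycogen-binding protein, rose by 0.71. At any fold change 11 of 31 glycolysis genes were lower and none higher, where 3.36% of all genes were lower and 3.12% higher. With the library set as a term in the fit, none of the 78 passed both thresholds, but only 77 of all genes tested did, against 763 without it. The set and the treatment cannot be told apart in WT siblings. In *dmd* mutants after eNMES none of the 78 passed, and DESeq2 passed none. There 9 of 78 had an unadjusted p under 0.05 in edgeR, near the 10.3% of all genes.

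The genes whose library-to-library pattern was most like that of the gyg1 genes were looked up among 17062 genes with a mean of at least 50 normalized counts. Likeness was Pearson's r of log2 values over the 24 libraries after the group means were subtracted, and libraries share depth and the larvae they were made from. For each copy the 5 genes with the highest r are named, without a test and without a reference value for unrelated genes. For gyg1_59391 these were adora2a (r = 0.726), myom1_61249 (0.694), pdhb (0.693), nipsnap2 (0.686) and ryr3 (0.649). adora2a is an adenosine receptor, myom1 a protein of the sarcomeric M band and pdhb a subunit of pyruvate dehydrogenase. Without replicate 1 of the *dmd* mutant controls the values were 0.565 to 0.682. For gyg1_11934 they were prx (0.772), oaz2 (0.769), pbdc1 (0.757), slc38a5b (0.749) and rab3b (0.743), none of them shared with the other copy.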

How the data were processed

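Per the labels, polyA RNA of whole larvae was sequenced from a stranded library kit. The authors trimmed reads with Trimmomatic 0.38.0 (version from the submitters' processing notes), mapped them with bowtie 1.1.2 to zebrafish GRCz11 transcripts and estimated values per gene with RSEM 1.2.31. The deposited tables hold estimated counts (expected counts of RSEM, neither filtered nor scaled) and TPM computed by the authors from the same reads and transcript lengths. Reads that match several genes are divided among them, so the copies of a gene can trade counts. In the text each symbol is in lower case. Labels name 25 libraries, of which 24 were used. The library labelled replicate 1 of trained *dmd* mutants was not used here.

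Estimated counts were rounded to whole numbers, and a gene was kept where its summed count reached 10 (25832 of the 27659 with at least 1 count). edgeR 4.0.16 in R 4.3.3 was run with TMM normalization, robust quasi-likelihood F tests and 1 fit for all 4 groups. P-values were adjusted over all genes tested. "Passed the test" stands for an adjusted p under 0.1, and "both thresholds" adds a log2 fold change beyond 0.6 either way, the values in the study's methods. Standard errors were taken as the log2 fold change over the root of F. Single genes were also compared by a two-sided exact permutation test of the mean log2(normalized count + 1), with 33 such tests, whose p-values were not adjusted. TPM were used only for levels and shares. Alternatives were DESeq2 1.42.0, other size factors, other filters, other thresholds, the groups compared alone, the replicate number as a block, the library set, and leaving out each library. The edgeR script was tested on simulated data with known changes.

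The members and all gene lists were chosen with earlier results of these data known. Named are all members, of each list the genes called or else the highest and lowest, and at most 3 markers, with the counts giving the rest; tpi1_25012, eno2 and the 2 agl genes were named after their values were seen. Gene symbols came from a table of gene names, which gave 29201 of 32520 IDs a symbol. That labels name separate libraries is all that is known of replicates beyond the 2 larvae pooled in each.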

Additional observations from a re-analysis of the deposited data

Results flagged for a closer look

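Replicate 1 of the *dmd* mutant controls was far above the other 7 controls for 2 genes, by the gap to its nearest neighbour relative to the range of the group. It had 3142 normalized counts of gyg1_59391, where the next library had 2371, and 2335 of pygm_55518, where the next had 1871. These are 2 of 33 group and gene pairs examined, and chance gives about 1 in 20. The library has the sign of the negative set. Without it, the log2 fold change of gyg1_59391 with eNMES in mutants was 0.29 (adjusted p = 0.0334 in edgeR) in place of 0.21. The controls are the libraries in which the gene was chosen for being low, and the library was left out with its value known, so this is a description.

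The change with eNMES differed between the genotypes for 4 pathway genes by the test of the difference itself, edgeR's interaction term. The log2 change in *dmd* mutants minus that in WT siblings was 1.47 for ppp1r3ab, 1.12 for slc2a1_07412, 0.61 for pfkm_14179 and 1.78 for pck1. All 4 were lower with eNMES in WT siblings (log2 changes -1.16, -0.96, -0.49 and -1.39, in the same order), while in mutants their changes were 0.31, 0.16, 0.12 and 0.39 and did not pass the test. These are 4 of 78 genes, against 1.85% of all genes tested. With the library set as a term, none of the 78 passed both thresholds, but only 17 of all genes tested did, against 477 without it. In WT siblings the set and the treatment cannot be told apart.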

How the results depend on the processing

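Precision is limited by the 3 libraries of WT siblings with eNMES, by the low counts of gyg2, gbe1_29051 and g6pc1_14967, and by reads divided between gene copies. Whether replicate numbers pair the samples cannot be told from these values. Deviations of same-numbered libraries from their group means correlated with r from -0.142 to 0.26, but libraries of different numbers were not compared. In each mutant group the lower numbers belong to the negative set and the higher ones to the positive set. With the replicate block, 1 of the 11 glycogen genes passed both thresholds between trained genotypes (pygm_55518, log2 fold change 0.65, against 0.59 without the block), gbe1_99524 lost its call (adjusted p = 0.284 in edgeR), and gyg2 turned from 0.05 to -0.49.

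Counts for the untreated genotype comparison, which chose the list, only describe it. Without the minimum fold change the glycogen genes under the adjusted p were 5 in the trained comparison (and 5 in the untreated one), and the pathway genes 19 in WT siblings, 16 in the untreated and 25 in the trained genotype comparison. At an adjusted p under 0.05, 1 pathway gene passed in the untreated genotype comparison. With the library set as a term, 1 glycogen gene passed both thresholds in WT siblings (gyg2, log2 fold change 1.40), 2 in the untreated and 1 in the trained genotype comparison. Pathway genes then numbered 0 in WT siblings, 1 untreated, 6 trained and 0 for the difference of the eNMES changes. Of all genes tested, 77, 435, 906 and 17 passed both thresholds in the same order. gyg1_11934 turned to -0.0797 in WT siblings and gyg2 to -0.29 between trained genotypes. At any fold change in WT siblings, DESeq2 and the library set term each passed 1 glycogen gene and a fit of these groups alone passed 2. With mutant libraries of the positive set only, 2 glycogen and 2 pathway genes passed untreated and 1 glycogen gene trained. In that trained fit genotype and set cannot be told apart, since all WT siblings with eNMES are of the negative set. With those of the negative set only, 6 pathway genes passed trained.

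With each library left out in turn, pathway genes past both thresholds ranged from 2 to 5 in WT siblings, 1 to 6 untreated, 4 to 12 trained and 2 to 7 for the difference. Glycogen genes past both thresholds ranged from 0 to 1 trained. At any fold change they ranged from 0 to 1 in WT siblings, 0 to 1 in mutants after eNMES, 3 to 5 untreated and 2 to 6 trained. The cause of these moves was not tested.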
